A study of Bos taurus with 10 samples.

Results

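Golgins are long, rod-like coiled-coil proteins of the Golgi apparatus. They are anchored to a Golgi membrane at one end and reach into the cytoplasm to capture incoming vesicles, each at its own place in the stack, with small GTPases of the RAB, ARL and ARF families as docking sites. The Golgi is the station at which secretory and membrane proteins of the oviduct lining, among them mucins and the oviduct glycoprotein, are modified and sorted. The golgins examined were taken by name from a list of 10, and 9 of them stood under that name among the 24596 rows of the deposited table: GOLGA1, GOLGA3, GOLGA4, GOLGA5, GOLGB1, GCC1, GCC2, TRIP11 and TMF1. The tenth, GOLGA2, was found as the row ENSBTAG00000011317, which the table describes as golgin A2. It is reported apart and is in none of the counts over 9.

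The libraries were made from epithelial cells of the oviductal isthmus of heifers (Bos taurus). The cyclic group comprised 5 libraries from heifers given a sham transfer and the pregnant group 5 libraries from heifers that received 50 presumptive zygotes produced in vitro. Poly(A)-selected RNA was sequenced, and the table gives RPKM, reads scaled to gene length and library total. A comparison of levels between genes therefore rests on the lengths used, and one between libraries on the library totals. The labels do not say that each library came from its own animal, so n counts libraries and the spread between them may be partly technical.

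The golgins were selected on the RPKM difference between pregnant and cyclic heifers, which was known when the list was made. Those differences are therefore given as a description with no test, as log2(RPKM + 1) in pregnant minus cyclic heifers with limma's standard error (SE). Across the whole table, after features averaging under 1 RPKM were left out, none of 12834 passed an adjusted p of 0.05 (limma-trend, Benjamini-Hochberg, 0% called, smallest adjusted p = 0.0934), while 3534 (27.5%) had an unadjusted p under 0.05; voom on the reads recovered from the RPKM values also called 0. The library totals recovered from the values (in M, mega) were lowest in cyclic library 4, at 9.71 M reads, and highest in pregnant library 5, at 26.1 M reads. The epithelial genes OVGP1, PAX8, EPCAM and FOXJ1 were present in every library, at no less than 766, 72.8, 318 and 51.5 RPKM. Along principal component 1, which held 38.1% of the variance, cyclic library 4 lay at -55.7 against -25.7 to 10.5 for the other cyclic libraries, and pregnant library 4 at -6.47 against 21.6 to 29.3 for the other pregnant libraries. Cyclic library 3, at 10.5, lay nearest to the pregnant side.

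Golgin transcripts differed from one another in how far the groups lay apart. Transcripts of GOLGA4, GCC2, TRIP11 and TMF1 were each 2.06 to 2.69 times as abundant in pregnant as in cyclic heifers, GOLGB1 was 1.55 times as abundant, and GOLGA1, GOLGA3, GOLGA5, GCC1 and the GOLGA2 row had ratios between 0.702 and 1.26. Of the 9 golgins, 7 were higher and 2 lower in pregnant heifers, where 50.9% of all tested features were higher. Their median log2 difference was 0.63, beside 0.01 over all tested features. Differences of 1 or more were seen for 4 of the 9 and for 0.826% of all tested features. The groups did not overlap for 2 of the 9, GOLGA4 and TMF1, both higher in pregnant heifers, beside 4.91% of all features. None of the 9 was lower without overlap, beside 2.05% of all features. These shares describe golgins picked for their differences and carry no further weight.

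**Figure D1:**
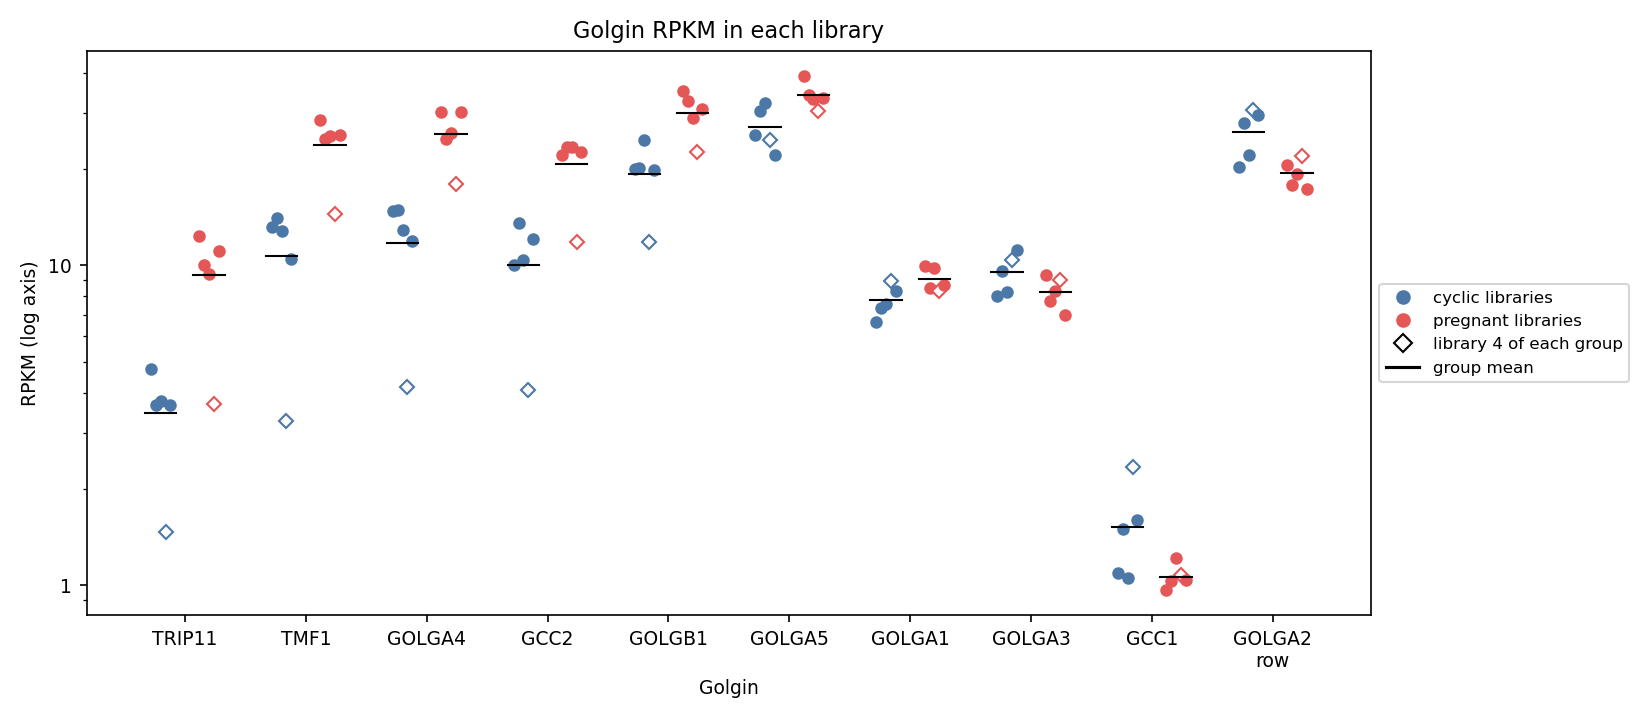
RPKM on a log axis of each golgin in every library, with cyclic libraries in blue, pregnant libraries in red, library 4 of each group as an open diamond and group means as bars. The groups are separate for TMF1 and GOLGA4, and for TRIP11, GCC2, GOLGB1 and GOLGA5 they overlap at pregnant library 4 alone. They also overlap for GOLGA1, GOLGA3, GCC1 and the GOLGA2 row, the last at cyclic library 1 alone. Cyclic library 4 lies far below the other cyclic libraries for TRIP11, TMF1, GOLGA4 and GCC2.

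Among golgins of the trans-Golgi, 4 carry a GRIP domain, a short carboxy-terminal module through which ARL1 recruits some of them to the membrane. They divided into a pair with large differences and a pair with small ones. GOLGA4, which captures vesicles arriving from endosomes, measured 14.8, 14.8, 12.9, 4.18 and 11.9 RPKM in cyclic libraries 1 to 5. In pregnant libraries 1 to 5 it measured 30.1, 24.8, 26.0, 18.0 and 30.1 RPKM. Every pregnant library lay above every cyclic library, with cyclic library 4 the lowest of all. The cyclic and pregnant means were 11.7 ± 4.41 and 25.8 ± 4.98 RPKM (SD, n = 5 each). The log2 difference was 1.15 (SE 0.29), and 42 of the 12834 tested features had a larger one. Without cyclic library 4 the difference was 0.85.

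GCC2, a GRIP golgin with a role in return traffic from endosomes to the trans-Golgi, measured 10.04, 13.6, 10.4, 4.08 and 12.1 RPKM in cyclic libraries 1 to 5. The pregnant values were 22.2, 23.4, 23.4, 11.8 and 22.7 RPKM. Of the pregnant libraries, only number 4 fell among the cyclic values, and the other 4 pregnant libraries lay within a narrow band well above them. The means, 10.04 ± 3.63 and 20.7 ± 4.98 RPKM, gave a log2 difference of 1.02 (SE 0.28), which was 0.76 without cyclic library 4 and 1.20 without pregnant library 4.

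GOLGA1, recruited by ARL1 to the same membranes as GOLGA4, measured 6.63, 7.36, 7.59, 8.94 and 8.34 RPKM in cyclic libraries 1 to 5. Its pregnant values were 9.98, 8.48, 9.82, 8.29 and 8.71 RPKM. The groups overlapped, and cyclic library 4, lowest for GOLGA4 and GCC2, was the highest cyclic library for GOLGA1. The log2 difference was 0.20 (SE 0.11). GCC1, the remaining GRIP golgin, was the scarcest of all golgins, at 1.10, 1.50, 1.05, 2.35 and 1.60 RPKM in cyclic libraries 1 to 5. In pregnant libraries 1 to 5 it measured 0.969, 1.03, 1.21, 1.08 and 1.04 RPKM. It lay lower in pregnant heifers with overlap, again with cyclic library 4 highest (log2 difference -0.26, SE 0.16, and -0.16 without that library). Adding 1 to such low values shrinks the difference, which was -0.42 with 0.1 added in place of 1 and -0.42 by voom on the recovered reads. GCC1 rested on 39 to 70 recovered reads per library, and 39 reads carry a counting error of 16.0%, more than the coefficient of variation of 8.61% between pregnant libraries. RPKM of this gene therefore cannot resolve small differences between libraries.

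TRIP11 works on the cis side of the stack, where its amino-terminal end binds small, highly curved vesicles. In cyclic libraries 1 to 5 it measured 4.75, 3.66, 3.78, 1.47 and 3.67 RPKM. The pregnant values were 12.4, 10.02, 9.37, 3.68 and 11.1 RPKM. Pregnant library 4 lay at the level of the cyclic libraries and the other 4 pregnant libraries far above it. The log2 difference was 1.17 (SE 0.30). Leaving out cyclic library 4 lowered it to 0.97, and leaving out pregnant library 4 raised it to 1.44. The length behind the TRIP11 row, recovered from its values, was 2174 bases, shorter than the coding sequence of the human protein, so the row may describe only part of the transcript. It rested on 31 reads in cyclic library 4 and 628 in pregnant library 5.

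The GOLGA2 row stands for the best studied cis-golgin, which binds the stacking protein GORASP1 and the tether USO1. It measured 20.3, 27.8, 22.2, 30.5 and 29.6 RPKM in cyclic libraries 1 to 5. In pregnant libraries 1 to 5 the values were 20.7, 17.9, 19.3, 21.9 and 17.3 RPKM. All pregnant libraries lay below every cyclic library except cyclic library 1, which fell among them, and cyclic library 4 was the highest. The log2 difference was -0.40 (SE 0.13), opposite in sign to that of TRIP11 on the same side of the Golgi.

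GOLGB1 and GOLGA5 are the golgins held in the membrane by a carboxy-terminal transmembrane segment, and both sit at the rims of the cisternae. GOLGB1, giantin, the longest of the golgins, measured 20.0, 20.2, 24.7, 11.8 and 19.9 RPKM in cyclic libraries 1 to 5. It measured 35.2, 32.6, 28.9, 22.6 and 30.8 RPKM in pregnant libraries 1 to 5. Only pregnant library 4 fell below a cyclic library, cyclic library 3. The means, 19.3 ± 4.65 and 30.0 ± 4.75 RPKM, gave a log2 difference of 0.63 (SE 0.18), or 0.47 without cyclic library 4.

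GOLGA5 was the most abundant golgin, at 25.6, 30.4, 32.2, 24.7 and 22.2 RPKM in cyclic libraries 1 to 5. The pregnant libraries gave 39.0, 34.2, 33.1, 30.3 and 33.3 RPKM. Pregnant library 4 alone lay within the cyclic range. The means were 27.0 ± 4.14 and 34.0 ± 3.16 RPKM, and the log2 difference 0.33 (SE 0.12) was the smaller of the membrane-anchored pair.

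TMF1, which binds RAB6 and takes part in retrograde traffic to the Golgi, measured 13.2, 14.0, 12.8, 3.26 and 10.4 RPKM in cyclic libraries 1 to 5. The pregnant values were 28.4, 24.8, 25.4, 14.5 and 25.6 RPKM. The groups were separate by a narrow margin, since pregnant library 4 lay just above cyclic library 2. The log2 difference was 1.17 (SE 0.32), and 0.84 without cyclic library 4. GOLGA3, a golgin also linked to the supply of proteins to the cell surface, measured 8.05, 9.63, 8.24, 10.4 and 11.2 RPKM in cyclic libraries 1 to 5. Its pregnant values were 9.30, 7.74, 8.32, 9.01 and 6.98 RPKM. The groups overlapped widely, with a log2 difference of -0.18 (SE 0.13), or -0.27 with array weights.

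In mean RPKM the order of levels in cyclic heifers was GOLGA5, GOLGB1, GOLGA4, TMF1, GCC2, GOLGA3, GOLGA1, TRIP11 and GCC1. Each neighbour overlapped the next in its libraries except GOLGA1, which lay above TRIP11 in all 5 cyclic libraries. In pregnant heifers the first 5 kept their places, and TRIP11 moved from rank 8 to rank 6, ahead of GOLGA1 and GOLGA3. There the only step without overlap was the last, from GOLGA3 at 8.27 ± 0.944 RPKM to GCC1 at 1.07 ± 0.0917 RPKM (SD, n = 5 each). The rank of TRIP11 depends on its recovered length, which may be only part of the transcript.

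Library 4 of each group set much of the spread. Cyclic library 4 was the lowest cyclic library for 5 golgins, at 0.258 of the mean of the other cyclic libraries for TMF1, 0.306 for GOLGA4, 0.354 for GCC2, 0.371 for TRIP11 and 0.559 for GOLGB1. For GOLGA1 and GCC1 it was the highest. Pregnant library 4 was the lowest pregnant library for 7 golgins, down to 0.343 of the others' mean for TRIP11. Without pregnant library 4, 6 of 9 golgins were higher without overlap, beside 10.1% of tested features. Leaving out library 4 of both groups gave 7 of 9, beside 10.6%. In both cases the background share had risen as well. Without cyclic library 3 the median log2 difference of the 9 golgins was 0.73, with 7 of them higher.

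The 5 golgins with the largest differences also varied together inside the groups. After each group's mean was removed, Pearson's r over 10 libraries lay between 0.85 and 0.99 for the 10 pairs among TRIP11, TMF1, GOLGA4, GCC2 and GOLGB1. The highest was between GOLGA4 and TMF1. GCC1 lay at -0.57 to -0.81 against these 5 genes, and with GOLGA1 and GOLGA3 at 0.67 and 0.60. Leaving out library 4 of each group turned GCC1 with GCC2 from -0.57 to 0.83, the highest r of all 36 pairs over those 8 libraries. GCC1 with the other 4 then lay between -0.67 and -0.33, and with GOLGA1 and GOLGA3 at 0.49 and 0.67. Since GCC1 rested on 39 to 70 reads per library, counting error enters all of its r values. Without library 4 of each group the 10 pairs ran from -0.59 to 0.80, and the median over all 36 pairs went from 0.16 to -0.05. GOLGA4 with TMF1 stood at 0.80 and GOLGA1 with GOLGA3 at 0.81 over those 8 libraries. These correlations are descriptive, and all points in a pair share a library and its total.

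**Figure D2:**
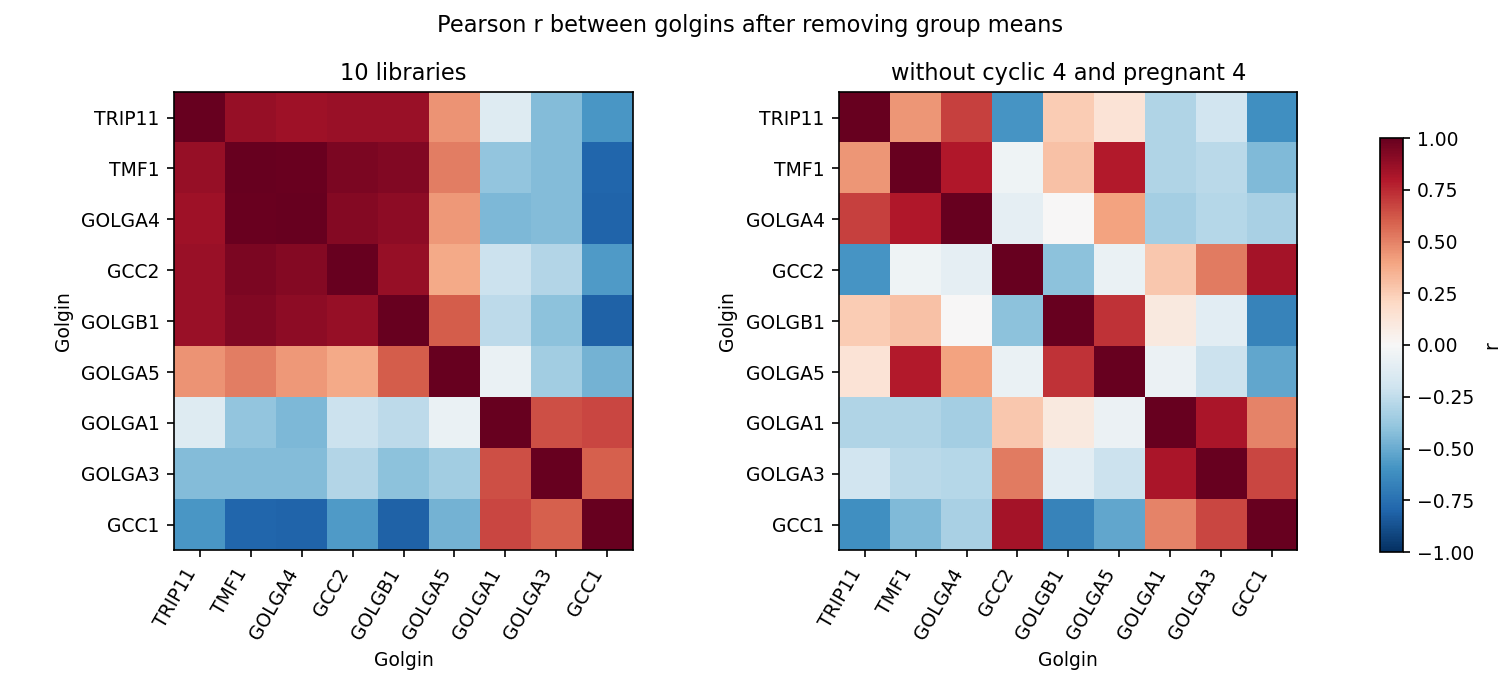
Pearson r between log2(RPKM + 1) of each pair of golgins after removal of group means, over 10 libraries on the left and over 8 libraries, without cyclic library 4 and pregnant library 4, on the right. The block of 5 genes at the upper left, with r of 0.85 to 0.99, breaks up on the right, where r runs from -0.59 to 0.80.

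Other parts of the Golgi tethering machinery were centred near 0. None of the 57 tested genes of 4 Golgi lists passed over all features, and 22 of the 57 had an unadjusted p under 0.05, beside 27.5% of all features (limma-trend, smallest adjusted p = 0.0934). Golgin-binding GTPases and their partners had 9 of 17 tested members on the higher side, beside 50.9% of all features. The list median was 0.06 (log2 difference). For ARL1 itself the cyclic and pregnant means were 74.6 ± 8.63 and 90.0 ± 14.0 RPKM (SD, n = 5 each), which differed by 0.26 on the log2 scale. RAB1A, a RAB of the early secretory pathway, had 0.42 and did not overlap between groups. TBC1D23, an adaptor that links vesicles to GOLGA1 and GOLGA4, had 0.60, and SYS1, part of the route that brings ARL1 to the membrane, -0.44. ARF5, of the ARF family, had -0.37 and did not overlap between groups.

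Golgi matrix genes divided evenly, 7 higher and 7 lower, with a median of -0.02, which was 0.06 without pregnant library 5. USO1, a long coiled-coil tether that binds both GOLGA2 and GOLGB1, averaged 40.1 ± 13.3 against 62.8 ± 3.31 RPKM without overlap, a log2 difference of 0.71. GORAB, which binds RAB6, had 0.65, BLZF1, a golgin partner of GORASP2, 0.49, and SCOC, a small coiled-coil protein, 0.39. The stacking proteins GORASP1 and GORASP2 differed by -0.16 and -0.05. The GORASP pair and ARL1 were added for their roles after their values had been seen.

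The multisubunit tethers, COG inside the Golgi and GARP on the trans side, had 6 genes higher and 6 lower (median 0.05, and -0.01 without cyclic library 3). VPS54 of GARP had a log2 difference of 0.65, COG3 0.43 and COG5 0.24, while COG1 had -0.40. Of 14 Golgi SNAREs and their regulator, 10 were higher, beside 50.9% of all features. Their median was 0.11, which was 0.21 without cyclic library 3. SCFD1, which controls SNARE pairing between the endoplasmic reticulum and the Golgi, had 0.61, the SNAREs BET1 and VAMP4 0.48 each, and STX10 -0.37.

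The list that lay nearest to the golgins was one of 19 tested long coiled-coil genes other than golgins, chiefly of centrosomes, endosomes, the nuclear pore and the cytoskeleton. It holds AKAP9, which is found at the cis-Golgi as well as at centrosomes. Of the 19, 13 were higher, beside 50.9% of all features, and the median was 0.55 on the log2 scale. An unadjusted p under 0.05 was found for 12, beside 27.5% of all features, with none called by limma-trend over all features. The list was chosen with earlier results of these data known. ROCK1 and ROCK2, kinases that act on actin and myosin, differed by 1.10 and 1.02, KTN1, a kinesin-binding protein of the endoplasmic reticulum, by 1.07, and TPR of the nuclear pore by 0.75. Each of these 4 missed the threshold, with 0.0934 as limma-trend adjusted p. For 6 of the 19 the groups did not overlap, all higher in pregnant heifers, beside 4.91% of all features. AKAP9, singled out here for its place in the cell, was one of the 6, with a log2 difference of 0.70. Without pregnant library 4 the number was 9, beside 10.1%, and without library 4 of both groups it was also 9, beside 10.6%. This list also held genes with lower values, with MYH9, a non-muscle myosin singled out after its value was seen, at -0.94. Its median by library, centred on all libraries, was -0.86 in cyclic library 4, -0.15 to -0.09 in the other cyclic libraries, 0.04 in pregnant library 4 and 0.30 to 0.39 in the other pregnant libraries. The median of the golgins followed a like order, at -0.94, -0.24 to -0.10, -0.06 and 0.28 to 0.55.

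**Figure D3:**
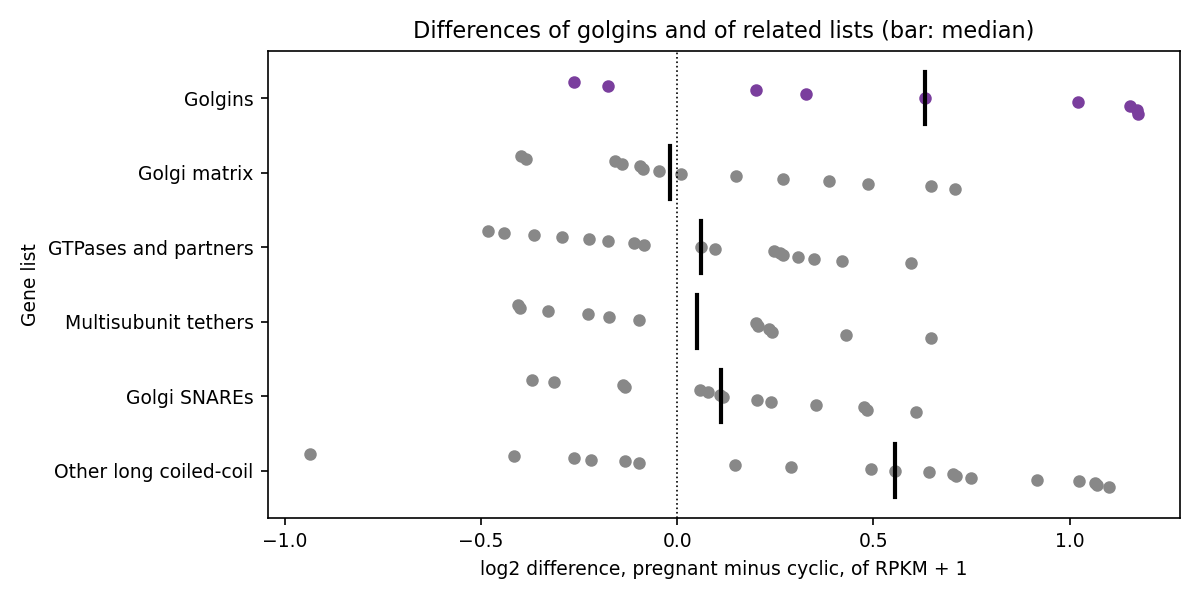
Log2 difference of RPKM + 1, pregnant minus cyclic, for each golgin and each tested gene of 5 related lists, with a bar at the median of each list. The golgin and other long coiled-coil medians lie at 0.63 and 0.55, and the Golgi matrix, GTPase, multisubunit tether and SNARE medians between -0.02 and 0.11.

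Gene length and log2 difference were nearly unrelated over the table. Lengths recovered from the RPKM values had a median of 3481 bases for the 9 golgins and 1914 bases for 12823 tested features. Across those features Spearman's rho between length and log2 difference was -0.02, and the median difference was -0.04 in the class of 6000 to 7999 bases that holds GOLGA4 (7374 bases) and -0.01 at 8000 bases and over, which holds GOLGB1 (10076 bases). Set against the median of its own length class, GOLGA4 was 1.20 higher, TMF1 1.19, TRIP11 1.18, GCC2 1.01 and GOLGB1 0.64. All class medians lay between -0.04 and 0.05, so these values nearly repeat the differences known when the golgins were chosen. The class of TRIP11 rests on a recovered length that may be only part of its transcript. In cyclic library 4 rho between length and centred level was -0.01, within the -0.06 to 0.11 of the other cyclic libraries, and in pregnant library 4 it was -0.10, the lowest of all 10.

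**Figure D4:**
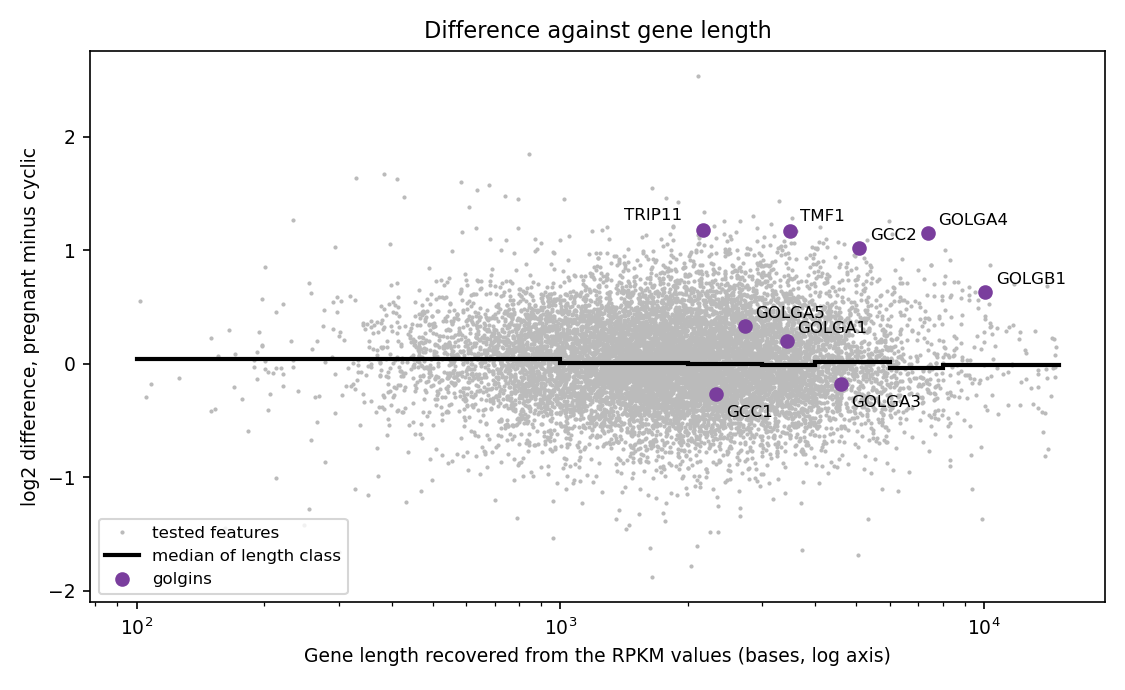
Log2 difference, pregnant minus cyclic, against gene length in bases on a log axis for 12823 tested features (grey), with the median of each length class (black bars) and the golgins (purple). The class medians stay between -0.04 and 0.05, while TRIP11, TMF1, GOLGA4 and GCC2 lie above 1.

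Most markers of the epithelial cell types lay in the opposite direction to most golgins. The 7 secretory markers summed to between 5937 and 12083 RPKM in cyclic and between 1848 and 4470 RPKM in pregnant libraries, with 6 of 7 lower in pregnant heifers. The sums were mostly OVGP1 and CLU, both secreted products. OVGP1 averaged 5760 RPKM in the cyclic group against 2050 RPKM, and CLU 1651 RPKM against 500.2 RPKM. On the log2 scale MUC1, KRT8 and KRT18 differed by -1.78, -0.73 and -0.44. The lineage marker PAX8 and the epithelial marker EPCAM had the smallest differences of the list, 0.02 and -0.14. The centred median of this list was highest in cyclic library 4 (1.02), where the median of the golgins was lowest (-0.94). There 5 of the 9 golgins had their lowest cyclic value and 2 had their highest, as did the GOLGA2 row. Of 7 tested ciliated markers 6 were lower, and the list median was -0.53 on the log2 scale. FOXJ1, DNAI2, TPPP3, DNAI1 and DNAH9 differed by -0.83, -0.61, -0.56, -0.53 and -0.43. RSPH1 was nearly unchanged at -0.004, while CCDC39 was higher by 0.96. The centred median of this list too was highest in cyclic library 4 (0.64). Stromal markers summed to between 61.0 and 131 RPKM in cyclic and between 31.3 and 52.4 RPKM in pregnant libraries, smooth muscle markers to 15.9 to 33.5 and 16.2 to 45.3 RPKM, and leukocyte markers to 20.0 to 32.3 and 21.3 to 29.0 RPKM. The centred median of the smooth muscle list was 0.62 in cyclic library 4, 0.87 in pregnant library 4 and -0.43 to 0.22 elsewhere. For the leukocyte list it was 0.20, 0.23 and -0.31 to 0.13 in the same order. The stromal median was 0.78 in cyclic library 4 and 0.04 in pregnant library 4, and was highest in cyclic library 1 (1.06). No marker of these lists was at 0 in all libraries. The part of cell makeup in the golgin values was not tested, and in such bulk samples fewer cells of a type and less RNA per cell cannot be told apart.

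**Figure D5:**
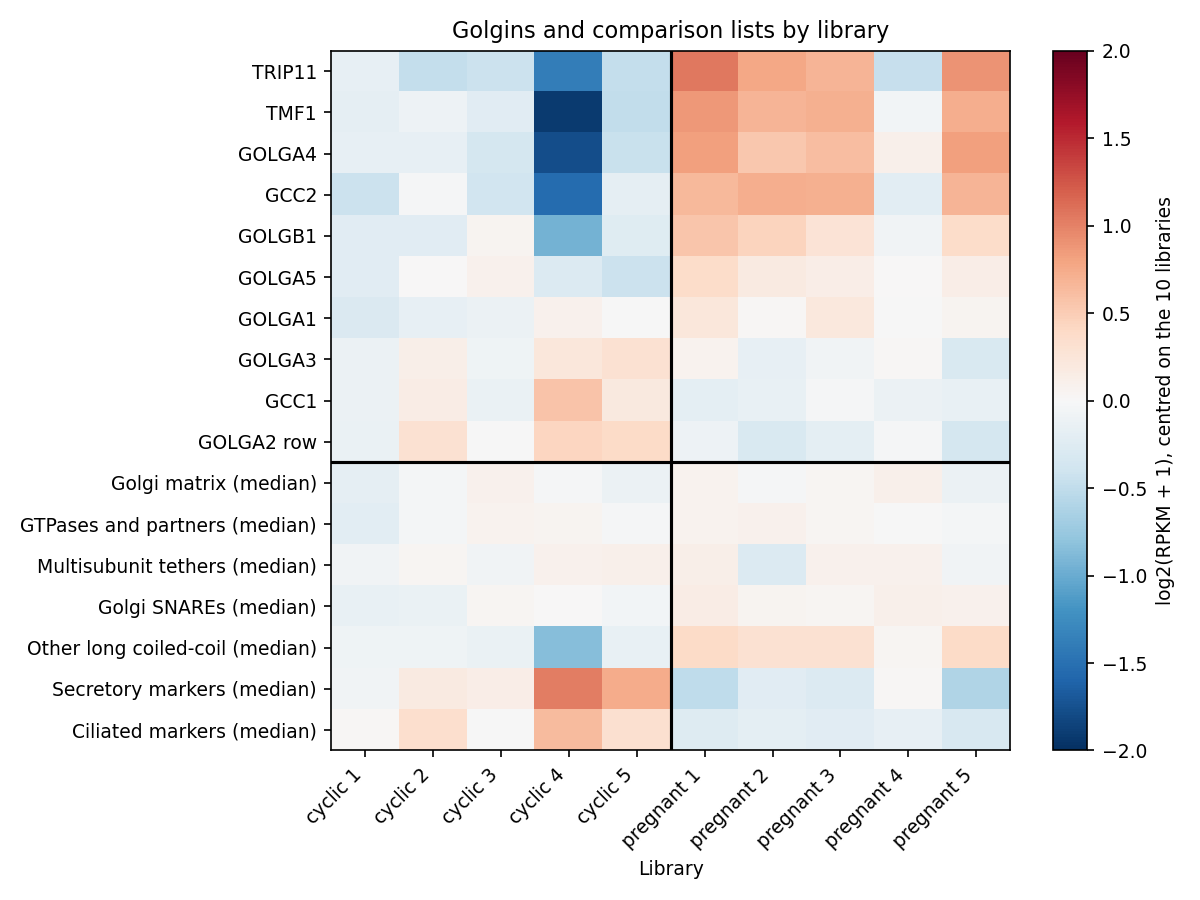
Log2(RPKM + 1) of each golgin, and the median of each related list, centred on the 10 libraries, with libraries in columns and cyclic and pregnant libraries divided by a line. The upper 5 golgins and the other long coiled-coil list are lowest in cyclic library 4 (-0.94 for GOLGB1, -1.92 for TMF1), where the secretory and ciliated markers are highest.

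Genes outside the family with the most similar profile were sought among 11825 tested features with a symbol. Unless group means are removed, the mean golgin profile holds the difference between groups that was known when the golgins were chosen. Genes with a like difference therefore match it, with or without library 4 of each group. The golgins averaged in it had a median pairwise r of 0.16 within groups, with 18 of 36 pairs below 0. Over 10 libraries the mean standardised golgin profile was matched most closely by ECHDC1, a metabolite-proofreading enzyme, CABYR, a calcium-binding protein known from sperm flagella, ANUBL1, BEND7 and TPD52L1, with Pearson's r of 0.97 to 0.98. Cyclic and pregnant means were 12.3 ± 3.48 and 25.4 ± 5.72 RPKM for CABYR, and 128 ± 28.7 and 205 ± 37.6 RPKM for TPD52L1 (SD, n = 5 each). With group means removed, the closest were SGMS2, a sphingomyelin synthase, SUCO, ELL2, PRKCI and PGM2, with r of 0.95 to 0.97. Without library 4 of each group r was 0.95 to 0.98 for the first 5 genes. For those matched with group means removed it was 0.94 for ELL2, 0.87 for SGMS2, 0.71 for SUCO, 0.69 for PRKCI and 0.53 for PGM2. In the same order their ranks became 14, 87, 588, 729 and 1936, so none stayed among the closest 5. SUCO had a log2 difference of 0.93 and SGMS2 of 0.26. None of these genes came up under both measures.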

How the data were processed

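The deposited table has 24596 rows and 10 value columns. Its header calls the values expression; the values themselves show that the authors had divided reads by gene length and library total, so they are RPKM as deposited. Which aligner, read counter, build and annotation were used is not given in the sources used here. Per the labels' protocols, libraries were stranded TruSeq mRNA libraries amplified by PCR. Groups follow the treatment in the labels. Library totals and gene lengths were recovered as the numbers at which RPKM values become whole reads (tolerance 0.02 reads plus rounding), starting from 8 mitochondrial genes whose lengths are in the RefSeq gene table, and 12823 of 12834 tested features received a length; this search was checked on simulated data. limma-trend (limma 3.58.1, R 4.3.3) was fitted to log2(RPKM + 1) with a term for group alone, on features averaging 1 RPKM or more. Adding 1 understates the log2 difference of low genes. Members and lists were chosen with earlier results of these data known. The text names all golgins, up to 4 genes of smallest p from each related list, the 5 genes of most similar profile under each of 2 measures, and 4 epithelial genes. Outside that rule it also names ARL1, GORASP1, GORASP2, AKAP9 and MYH9, and the other tested secretory and ciliated markers. SEC22B, WDR11 and GOLGA2 were matched by the table's descriptions. RAB6A, ARF3 and ACTG2 were not used. Lists carry no set test. Python 3.11.15 was used for tables and figures, with scipy 1.17.1, matplotlib 3.10.9, pandas 2.3.3 and numpy 2.4.6. No sequence was used here.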

Additional observations from a re-analysis of the deposited data

Results flagged for a closer look

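The 20 golgin groups of 5 libraries were 10 genes in 2 groups each, the GOLGA2 row included. In 3 of them, 1 library stood apart by a gap larger than 0.71 of the group's range. Chance alone does this in about 1 in 20 independent groups. These groups share the same 10 libraries, so 3 of 20 cannot be set against that rate. GOLGA4 was 4.18 RPKM in cyclic library 4 and 11.9 to 14.8 RPKM in the other cyclic libraries. In pregnant library 4, GCC2 was 11.8 RPKM, against 22.2 to 23.4 RPKM elsewhere in that group, and TMF1 was 14.5 RPKM, against 24.8 to 28.4 RPKM.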

How the results depend on the processing

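The signs of the log2 differences of the 9 golgins and the GOLGA2 row held in all 199 values from other settings, and none of these moved by more than 1 SD between libraries. Settings that changed only the filter on low values, the prior or the replicate block left the differences as they were by construction. The others reuse the same libraries and a contrast known when the golgins were chosen, so the count is not independent support. The median over the golgins ran from 0.47 (without cyclic library 4) to 0.73 (without pregnant library 4) with single libraries left out, and 7 of 9 stayed higher each time. Golgins without overlap numbered 2 to 6 with single libraries left out, with 6 without pregnant library 4 (10.1% of all features). The number was 3 without cyclic library 3 and 2 without any other single library, where no share of all features was computed. It was 6 without cyclic library 3 and pregnant library 4 (18% of all features) and 7 without library 4 of both groups (10.6%). The median r within groups ran from 0.03 to 0.38.

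The count of 0 features called over the table was the least stable value. It ran from 0 to 2213 with single libraries left out (2213 without cyclic library 3, 56 without pregnant library 4). It was 1018 at an adjusted p of 0.1, 4831 with array weights, 3578 without cyclic library 3 and pregnant library 4, and 531 without library 4 of both groups, a setting added after seeing the data. Among the 76 genes of the related lists the count of 0 became 0 to 27 with single libraries left out (27 without cyclic library 3), 47 with array weights, 38 without cyclic library 3 and pregnant library 4, and 9 without library 4 of both groups, beside 17.2%, 37.6%, 27.9% and 4.14% of all features. The cause was not tested. With the library number as a replicate block the count stayed 0. The labels do not say that the numbers pair the libraries: residuals correlated at over 0.1 in 1 of 5 same-numbered pairs, and 1 of 5 cyclic libraries correlated best with its own number. Of 299 values of single golgins and list medians, 4 moved by over 1 SD, all medians of the SNARE or other long coiled-coil list (SNAREs 0.21 without cyclic library 3 and 0.19 with array weights). The medians of the matrix and multisubunit tether lists lay so near 0 that their sign changed in some settings. The promoter comparison listed beforehand was not run, since no sequence was used. Depth limits GCC1 (39 to 70 reads) and TRIP11 in cyclic library 4 (31 reads) most.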
